A study of Rattus norvegicus with 45 samples.

Results

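The values described here are those of 9 rat genes whose products work in or on the lysosome: the proteases Ctsd, Ctsb, Ctsc, Ctsh and Ctsz, the sphingolipid activator precursor Psap, the cathepsin inhibitor Cst3, and the lysosomal membrane glycoproteins Lamp1 and Lamp2. They were chosen by name, as every probe set whose gene symbol, or whose current symbol by gene identifier, is one of the 9. This gave 11 probe sets of 31099 on the array, for 9 of the 12936 genes that have a probe set of their own. Ctsc and Lamp1 each had a second, dim probe set. That of Ctsc was called present on 7 of 27 arrays of the age table and on 6 of 36 of the diet table, and that of Lamp1 on 0 of either. Both were below the filter on low signals and were not tested, so each gene is described by its brightest probe set, which was called present on all 27 and all 36 arrays for all 9 genes.

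Lysosomes are acidic organelles that break down proteins, lipids and glycans delivered by endocytosis, phagocytosis and autophagy. Most of their enzymes are made as inactive precursors and carried from the Golgi by mannose 6-phosphate receptors, sortilin or related carriers, while LAMP-1 and LAMP-2 line the inner face of the limiting membrane. In the brain every cell type has lysosomes, microglia are rich in cysteine cathepsins, and astrocytes make much of the cystatin C. Loss of cathepsin D or of prosaposin causes neurodegenerative storage disease, and lysosomal content has long been studied in relation to brain ageing.

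The study measured RNA in hand-dissected hippocampal CA1, CA3 and dentate gyrus (DG) of 15 male F344xBN rats, with 1 Affymetrix rat array per region and animal, 45 in all. 3 rats were middle-aged (18 months) and fed ad libitum. The other 12 were old (28 months), with 6 fed ad libitum and 6 under calorie restriction, and each of these diets held 3 good and 3 poor performers in a behavioural test that the labels do not name. Restriction began at 14 weeks of age at 10%, was raised to 25% and reached 40% at 17 weeks. Where nothing else is said, levels are dChip signals on a linear scale from the authors' table of the 27 ad libitum arrays (age table) or of the 36 old arrays (diet table). A second signal, on another scale, covers all 45 arrays in 1 table and is called the table of all arrays. The tables were normalised separately, so levels are compared within a table, and a difference is one of log2(signal + 16) with its standard error. A gene passed when limma's two-sided p, adjusted by the Benjamini-Hochberg method over all probe sets tested, was under 0.05.

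Several features of the arrays bear on the results. The spiked poly-A control DapX split the arrays into 3 sets: 256.8 to 332.1 on the 9 arrays of middle-aged rats, 70.0 to 127.8 on 22 arrays that included all old ad libitum ones, and 1.78 to 6.76 on 14 arrays of restricted rats. Age and poly-A set cannot be told apart in the age comparison, nor in that of restricted with middle-aged rats, nor can diet and poly-A set in the dentate gyrus. The same holds for diet on the mean over regions, as each restricted rat has a dentate gyrus array in the lowest set. 4 restricted arrays, 3 from CA1 and 1 from CA3, were in the middle set. The authors' sample sheet marks 2 arrays of 1 restricted poor performer as outliers, replicate 3 in CA1 and replicate 4 in CA3. Their GAPDH 3'/5' ratios were 7.64 and 6.08 against a median of 2.04, and they were kept, with values without them given where they matter. Titles number the poor performers 2, 3 and 4 in CA3 but 1, 2 and 3 in CA1 and the dentate gyrus, in the same order of rats. Summed CA1 pyramidal markers (3 of 4 on the array) were 9689 to 15296 in CA1 and 2620 to 7328 in the dentate gyrus of the age table. They reached 13143 in CA3 of the old class, which overlaps CA1. Summed dentate granule markers were 5206 to 8512 in the dentate gyrus and 848 to 6239 elsewhere. Summed CA3 pyramidal markers, 12561 to 17350 in CA3, overlapped CA1 (10810 to 15977) and the dentate gyrus (12563 to 16834), so this sum did not set CA3 apart. Nptx1, at 7688 to 11398 over the arrays, was its largest part, and the single genes by region are not given here. The p-values measure the spread between these rats, 3 to 6 a class.

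Many lysosomal genes carry an E-box, CACGTG, within a longer element that the transcription factor TFEB binds. RefSeq promoter windows (GRCr8, 250 bases before to 50 after the start) were found for 7 of the 9 genes, all but Ctsb and Psap. CACGTG, which reads the same on both strands, was in 2 of the 7 and in 6.42% of all 33469 windows. Both of these also held the longer TCACGTGA, which contains the first and reads the same on both strands, found in 0.777% of all windows. The 2 windows with matches are printed 5′ to 3′ with each CACGTG in capitals, since they are the member windows that hold the motif.
Ctsd: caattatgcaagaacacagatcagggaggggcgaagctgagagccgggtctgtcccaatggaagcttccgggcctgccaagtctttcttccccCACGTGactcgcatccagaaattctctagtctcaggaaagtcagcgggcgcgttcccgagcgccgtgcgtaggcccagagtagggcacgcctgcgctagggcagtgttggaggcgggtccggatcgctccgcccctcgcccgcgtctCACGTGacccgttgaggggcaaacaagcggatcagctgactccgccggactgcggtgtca
Lamp1: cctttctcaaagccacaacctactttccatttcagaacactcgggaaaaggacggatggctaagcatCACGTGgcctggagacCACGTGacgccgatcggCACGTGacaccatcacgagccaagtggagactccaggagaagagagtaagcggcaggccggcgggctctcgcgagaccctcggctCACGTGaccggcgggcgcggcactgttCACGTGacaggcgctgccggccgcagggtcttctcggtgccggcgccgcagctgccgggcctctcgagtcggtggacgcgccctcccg
The Ctsd window is chr1:206968772-206969071 on the minus strand, and its 2 matches begin 157 and 10 bases before the start. The Lamp1 window is chr16:83075014-83075313 on the minus strand, inside the annotated span of the gene, and its 5 matches begin 183, 167, 150, 65 and 38 bases before the start. A match is a run of letters and not a measured binding site.

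The age comparison asked how old ad libitum rats differed from middle-aged ones in each region. Psap and Ctsd, the precursor of the saposins and the main aspartic protease, rose with age in all 3 regions, by 1.23 to 1.36 times and 1.22 to 1.37 times. The Ctsd calls within regions were near the threshold and were lost under other processing, as given below. Ctsz and Lamp2 rose in CA1 and Cst3 in CA3. On the mean over regions in each animal, 6 of the 9 rose, namely Psap, Ctsd, Ctsz, Lamp2, Cst3 and Lamp1, and 0 fell. The table of all arrays gave 4 on that mean, Psap, Ctsz, Ctsd and Ctsb, where 35.7% of probe sets passed (20.5% higher), beside 18.1%, 15% and 6.67% in CA1, CA3 and the dentate gyrus. In these regions the table of all arrays gave 3, 2 and 1 of the 9 genes. In the dChip age table the counts were 4 of 9 in CA1, 3 in CA3 and 2 in the dentate gyrus. They stand beside a large response of the whole array, in which 27.8% of the 18625 probe sets tested passed in CA1 (20.5% higher), 20% in CA3 (15.2% higher), 10.3% in the dentate gyrus (8.20% higher) and 40.1% on the mean (28.2% higher). Of the passing probe sets 74.0% were higher in CA1 and 70.5% on the mean, against 54.1% and 50.5% after quantile normalization. The median difference of the 9 genes was 0.40 in CA1, 0.18 in CA3 and 0.24 in the dentate gyrus, against 0.10, 0.06 and 0.07 for the 9533 genes tested.

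**Figure D1:**
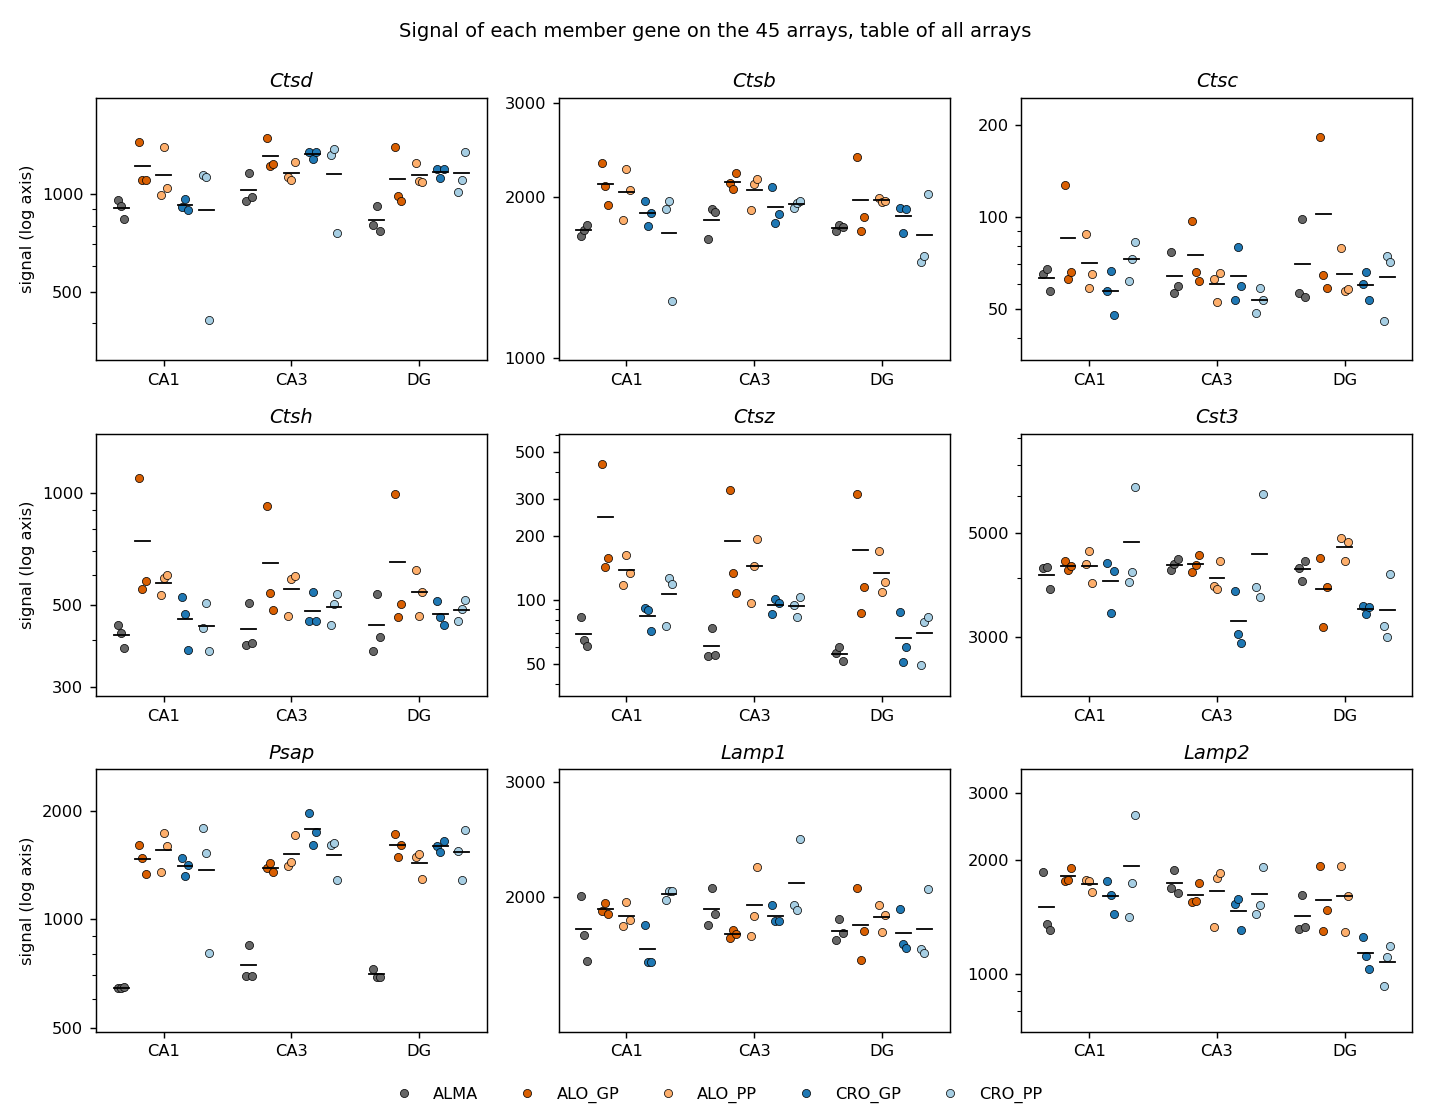
Signal of the 9 genes on each of the 45 arrays in the table of all arrays, on log axes, by region. Points are arrays, bars are class means, and the classes are ALMA (middle-aged, ad libitum), ALO_GP and ALO_PP (old, ad libitum, good and poor performers) and CRO_GP and CRO_PP (old, restricted). Psap of the middle-aged rats, 643.6 to 846.6 over the regions, lies below that of the old ad libitum rats, and 1 old good performer stands high for Ctsz and Ctsh.

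Psap encodes prosaposin, which is cut in the lysosome into the 4 saposins that help enzymes degrade sphingolipids, and which is also secreted. The gene lies on chromosome 20, 28756951 to 28783422. In CA1 its signal was 4684, 4916 and 4362 in the 3 middle-aged rats and 5628 to 7101 with a median of 6387 in the 6 old ones. In CA3 it was 4972, 4984 and 4777 against 5525 to 6626 (median 6061). In the dentate gyrus it was 4981, 4699 and 5006 against 6065 to 6418 (median 6289). The groups did not overlap in any region. The differences were 0.44 ± 0.085 in CA1 (adjusted p = 0.0043), 0.30 ± 0.065 in CA3 (0.0113) and 0.36 ± 0.051 in the dentate gyrus (0.0034). The difference on the mean over regions was 0.37 ± 0.043 (adjusted p = 0.00015). Leaving out any 1 rat kept these calls, except in CA3 without middle-aged replicate 3 (adjusted p = 0.0532).

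The size of the Psap difference depended on the signal used. In the table of all arrays its CA1 signal was 645.6, 643.6 and 647.9 in the middle-aged rats and 1335 to 1739.5 (median 1538) in the old ad libitum ones. The CA3 signal was 695.9, 846.6 and 697.8 against 1356 to 1716, and that of the dentate gyrus 729.7, 690.9 and 692.5 against 1299.5 to 1729. These are rises of 2.31, 1.94 and 2.13 times, with adjusted p of 4.74e-05, 0.000173 and 0.00036. The dChip values gave 1.36, 1.23 and 1.28 times for the same arrays. The order of the classes was alike in both, with the middle-aged rats lowest and apart.

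Ctsd encodes cathepsin D, an aspartic endoprotease, and lies on chromosome 1, 206956945 to 206968821. Its CA1 signal was 2738, 2723 and 2554 in the middle-aged rats and 2920.4 to 4707 (median 3588) in the old ones. In CA3 it was 2979, 3195 and 3089 against 3420.4 to 4288 (median 3698), and in the dentate gyrus 2479, 2775 and 2508 against 3133 to 4295 (median 3288). The groups did not overlap in any region, and the middle-aged rats lay close together. The differences were 0.45 ± 0.13 (adjusted p = 0.0294), 0.29 ± 0.086 (0.0389) and 0.43 ± 0.11 (0.0376). The mean over regions gave 0.39 ± 0.084 (adjusted p = 0.00474), a call kept without any 1 rat.

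The calls for Ctsd within regions were near the threshold. In CA1 the adjusted p became 0.0556, 0.0766 and 0.103 without middle-aged replicates 1, 2 and 3 and 0.0547 without old poor performer 2. In CA3 and in the dentate gyrus 6 of 9 such fits lost it, among them those without any middle-aged rat, with adjusted p up to 0.122 and 0.156. In CA3 the others were old good performers 1 and 3 (0.065 and 0.0572) and poor performer 3 by its CA3 title (0.0584). This rat is poor performer 2 in CA1 and the dentate gyrus. In the dentate gyrus they were poor performers 1, 2 and 3 (0.0602, 0.0558 and 0.0539). The table of all arrays gave like differences of 0.36, 0.26 and 0.42, with adjusted p of 0.0635, 0.116 and 0.0719. After quantile normalization the adjusted p in CA1, CA3 and the dentate gyrus was 0.0512, 0.0611 and 0.0594. Without the filter it was 0.0517, 0.074 and 0.0676. Each region thus lost the Ctsd call under each of these alternatives.

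Ctsz, Ctsh, Ctsc and Ctsb encode cysteine cathepsins of the papain family. Cathepsin Z is a carboxypeptidase, cathepsin H chiefly an aminopeptidase, cathepsin C a dipeptidyl peptidase that activates serine proteases of immune cells, and cathepsin B a broad endopeptidase that also trims dipeptides. Ctsz (chromosome 3, 183643077 to 183653847) had CA1 signals of 801.8, 661.3 and 498.8 in the middle-aged rats, and 3194, 1271 and 1187 in the old good performers. In the old poor performers it had 1060.0, 1500.3 and 1049.7. Every old rat was above every middle-aged one. In CA3 the signals were 738.3, 815.1 and 663.8 against 843.5 to 2463 (median 1181). In the dentate gyrus they were 542.4, 725.5 and 582.5 against 810.4 to 2147 (median 979.7).

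The Ctsz groups were thus apart in all 3 regions, although the test passed in CA1 alone. The regions come from the same rats and are not separate observations. Of the genes described here, 6 were apart in this way in CA1, 4 in CA3 and 5 in the dentate gyrus. How often other probe sets separate like this was not tested, so the separation does not stand in for the test. The Ctsz difference was 1.12 ± 0.32 in CA1, or 2.18 times (adjusted p = 0.0258), 0.76 ± 0.28 in CA3 (0.0848) and 0.89 ± 0.28 in the dentate gyrus (0.0768). The mean over regions gave 0.92 ± 0.26 (adjusted p = 0.0192). In the table of all arrays the differences were 1.15, 1.16 and 1.12, with adjusted p of 0.0238, 0.0202 and 0.0544. Old good performer 1 was the highest rat in each region, and without it the difference in CA3 was 0.57 (adjusted p = 0.0405), in the dentate gyrus 0.72 (0.0331) and on the mean 0.72 (0.0002). Without middle-aged replicate 2 or 3 the CA1 adjusted p became 0.0708 or 0.109. Without replicate 1 or 3 that of the mean became 0.0507 or 0.0751.

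Ctsh (chromosome 8, 99488756 to 99507639) had CA1 signals of 1958, 1769.5 and 1657 in the middle-aged rats and 2180.3 to 4162 (median 2332) in the old ones, and these groups did not overlap. In CA3 and in the dentate gyrus they did, at 1763.5 to 2133 against 1910.3 to 3524 and 1657.5 to 2208 against 1839.8 to 3779.9. The difference in CA1 was 0.52 ± 0.18 (adjusted p = 0.059), and 0.38 without old good performer 1 (0.00818). On the mean it was 0.39 ± 0.17 (adjusted p = 0.0974), and 0.26 without that rat (0.0056). The table of all arrays gave 0.60 ± 0.19 in CA1 (adjusted p = 0.0483).

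Ctsb (chromosome 15, 41565607 to 41586479) had CA1 signals of 7813, 7997 and 7995 against 8009 to 9587 (median 8958), with no overlap in CA1. Its difference was 0.16 ± 0.073 (adjusted p = 0.137), and on the mean 0.11 ± 0.042 (0.0657). The table of all arrays gave 0.21 ± 0.06 on the mean, which passed (0.0188). Ctsc (chromosome 1, 151440860 to 151472430) had CA1 signals of 227.8, 242.0 and 202.1 in the middle-aged rats and 238.6 to 479.8 in the old ones. Of its dentate gyrus values, 1 middle-aged rat had 388.0 and old good performer 1 had 837.7, while the other 7 arrays lay between 184.9 and 256.5. Its mean difference of 0.26 ± 0.24 (adjusted p = 0.418) was within the spread of the rats.

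Cst3 encodes cystatin C, a secreted inhibitor of cysteine cathepsins, and lies on chromosome 3, 156790061 to 156794116. Its CA1 signal was 11126, 11521 and 10975 in the middle-aged rats and 11898 to 13595 (median 12516) in the old ones. In CA3 it was 10649, 11297 and 10646 against 11606 to 12743, and in the dentate gyrus 10879, 11374 and 11543 against 11734 to 13104. All old arrays were above all middle-aged ones in each region. The differences were small, 0.17 ± 0.064 in CA1 (adjusted p = 0.0706), 0.18 ± 0.055 in CA3 (0.0442), 0.15 ± 0.055 in the dentate gyrus (0.115) and 0.17 ± 0.034 on the mean (0.0035). The CA3 call was lost without any 1 rat except old good performer 2, with adjusted p from 0.0516 to 0.146. The table of all arrays showed no rise: the CA3 difference was -0.05 ± 0.08 (adjusted p = 0.727) and that of the mean 0.01 ± 0.05 (0.932). The rise of Cst3 was thus seen in the dChip values alone.

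Lamp1 (chromosome 16, 83058131 to 83082843) and Lamp2 (chromosome X, 122038734 to 122087745) encode the most abundant glycoproteins of the lysosomal membrane, and an isoform of LAMP-2 serves as receptor in chaperone-mediated autophagy. Lamp2 had CA1 signals of 5024, 3833 and 3769 in the middle-aged rats and 4895 to 5574 (median 5238) in the old ones, so 1 middle-aged rat was within the old range. The difference was 0.34 ± 0.093 in CA1 (adjusted p = 0.0223), 0.01 ± 0.093 in CA3 (0.950) and 0.20 ± 0.16 in the dentate gyrus (0.458). The CA1 call was lost without middle-aged replicate 2 (adjusted p = 0.103) or 3 (0.108), and in the table of all arrays, where the difference was 0.25 ± 0.11 (0.127). Lamp1 had 6825, 6025.5 and 5821 against 6579 to 7446 in CA1, which overlap, and its difference was 0.18 ± 0.066 (adjusted p = 0.0659).

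On the mean over regions the rises were 0.18 ± 0.058 for Lamp2 (adjusted p = 0.0303) and 0.11 ± 0.037 for Lamp1 (0.0338). Both calls were near the threshold. Lamp2 lost it without middle-aged replicate 2 or 3 (0.0503 and 0.142) or old good performer 3 (0.0552). Lamp1 lost it without middle-aged replicate 2 or 3 (0.0686 and 0.151), old good performer 1 (0.0535) or poor performer 2 or 3 (0.0552 and 0.0545). The mean differences in the table of all arrays were 0.10 (adjusted p = 0.196) and 0.03 (0.691).

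**Figure D2:**
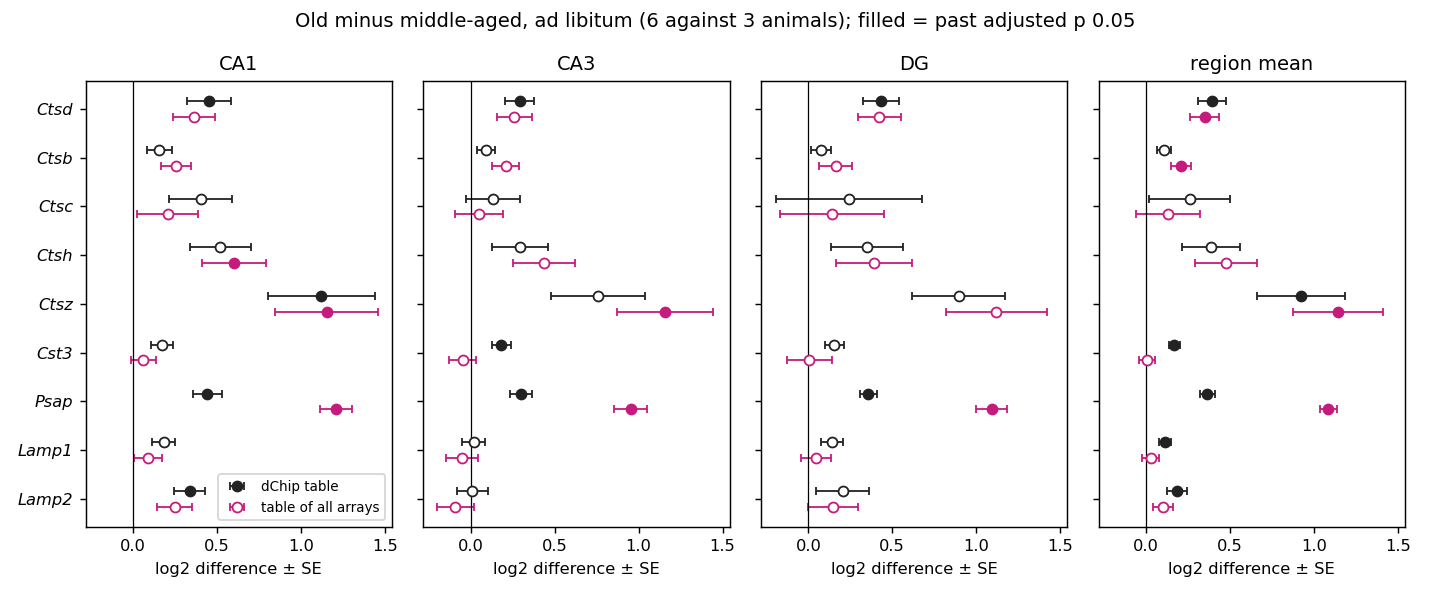
Old minus middle-aged difference of log2(signal + 16) for each of the 9 genes in CA1, CA3, the dentate gyrus (DG) and on the mean over regions, with bars of 1 standard error. The 2 colours are the dChip age table and the table of all arrays, and filled points passed at an adjusted p under 0.05. Psap lies to the right of 0 in both tables, further in the table of all arrays, and Cst3 on the mean is 0.17 in the first and 0.01 in the second.

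The age differences were then tested against each other between regions, on the difference within each animal. Of the 9 genes 0 passed in CA3 minus CA1, dentate gyrus minus CA1 or dentate gyrus minus CA3, where 0.00537%, 0.00537% and 0% of all probe sets did. At an unadjusted p under 0.05 limma counted 1, 0 and 0 members, Lamp2 in CA3 minus CA1 with -0.33 ± 0.13 (adjusted p = 0.613). Of the 18625 probe sets tested, 1437, 708 and 730 were under it. That Ctsz and Lamp2 passed in CA1 and not in CA3 is thus not a shown difference between the regions. The intervals were wide, -0.76 to 0.03 for Ctsz in CA3 minus CA1.

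Some markers of microglia and astrocytes, and MHC class II genes, moved with age beside these genes. Lists of oligodendrocyte, neuron, endothelial, choroid plexus, meninges and blood markers were also fitted and are not given here. In bulk tissue fewer cells of a type and less RNA per cell cannot be told apart, nor can more of either. Of the 9533 genes tested 24.9% rose in CA1, 17.9% in CA3, 10.1% in the dentate gyrus and 33.2% on the mean. Of 10 microglia markers tested of a list of 12, 6 rose in CA1, 4 in CA3, 3 in the dentate gyrus and 8 on the mean, and 0 fell. Their summed signal in CA1 was 5421 to 6735 in the middle-aged rats and 8929 to 17737 in the old ones. It was 5562 to 6365 against 7659 to 16059 in CA3, and 5005 to 6526 against 7169.9 to 11651 in the dentate gyrus. The groups did not overlap in any region, and none of the markers was at 0 on any array. All 5 MHC class II genes rose in CA1, with a summed signal of 1654 to 5894 against 8640.2 to 30647.

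The rat with the highest Ctsz and Ctsh, old good performer 1, also had the highest summed microglia signal and the highest MHC class II signal of the 6 old rats in each region. Of 11 astrocyte markers 6 rose in CA1 and 7 on the mean, and their summed CA1 signal was 69157 to 71802 against 73300 to 82753. The part of these cells in the rise of the lysosomal genes was not tested. Of 3 border macrophage markers tested of a list of 4, 1 rose in CA1 and 0 on the mean. The marker counts are to be read against the shares of all genes given above.

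The other genes of the lysosome were read from lists taken by function. These lists, like the members, were drawn up with earlier results of these data known. Of the 9533 genes tested 33.2% rose and 9.75% fell on the mean over regions, and the counts are to be read against these shares. On the mean over regions 5 of 12 other proteases rose and 0 fell, with a median of 0.27. Ctsf (cathepsin F) rose by 0.42, Tpp1 (tripeptidyl peptidase 1) by 0.28, Cpq by 0.26 and Ctse (cathepsin E) by 0.61. Of 30 lipid and glycan hydrolases 18 rose and 1 fell, with a median of 0.25. Among them were Arsb (arylsulfatase B), up by 0.67, and Acp2 (a lysosomal acid phosphatase), up by 0.29. The median of all 9533 genes was 0.07.

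Genes of the membrane and of acidification gave mixed counts. Of 12 other membrane proteins 1 rose (Tmem192, 0.14) and 3 fell, with a median of 0.03. The 3 were Cln3 at -0.69, Lamp5 at -0.29 and the sialic acid exporter Slc17a5 at -0.11. Cln3 stood at 1.06 in the table of all arrays, so its direction turns with the signal used. Of 16 subunits of the vacuolar ATPase, the proton pump of the lysosome, 4 rose and 4 fell. Atp6v0a1 rose by 0.57, Atp6v1f by 0.19 and Atp6v0c by 0.15, while Atp6ap2 had -0.16.

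Of 9 genes of sorting and of prosaposin's partners 5 rose and 0 fell. They included Sort1 (sortilin, which carries prosaposin to the lysosome), up by 0.16, Gpr37l1 (an astrocytic receptor reported to bind prosaposin peptides), up by 0.34, Lrp1 by 0.49 and Gnptab, which makes the mannose 6-phosphate tag, by 0.43. Of 3 lysosomal transcription factors Tfe3 rose by 0.15, and Mitf stood at -0.35 and passed as lower. Of 2 other cystatins Cstb rose by 0.18. In CA1 alone, where 24.9% of genes rose, the counts were 6 of 12 proteases, 15 of 30 hydrolases, 0 of 12 membrane proteins, 3 of 16 pump subunits and 3 of 9 sorting genes higher.

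**Figure D3:**
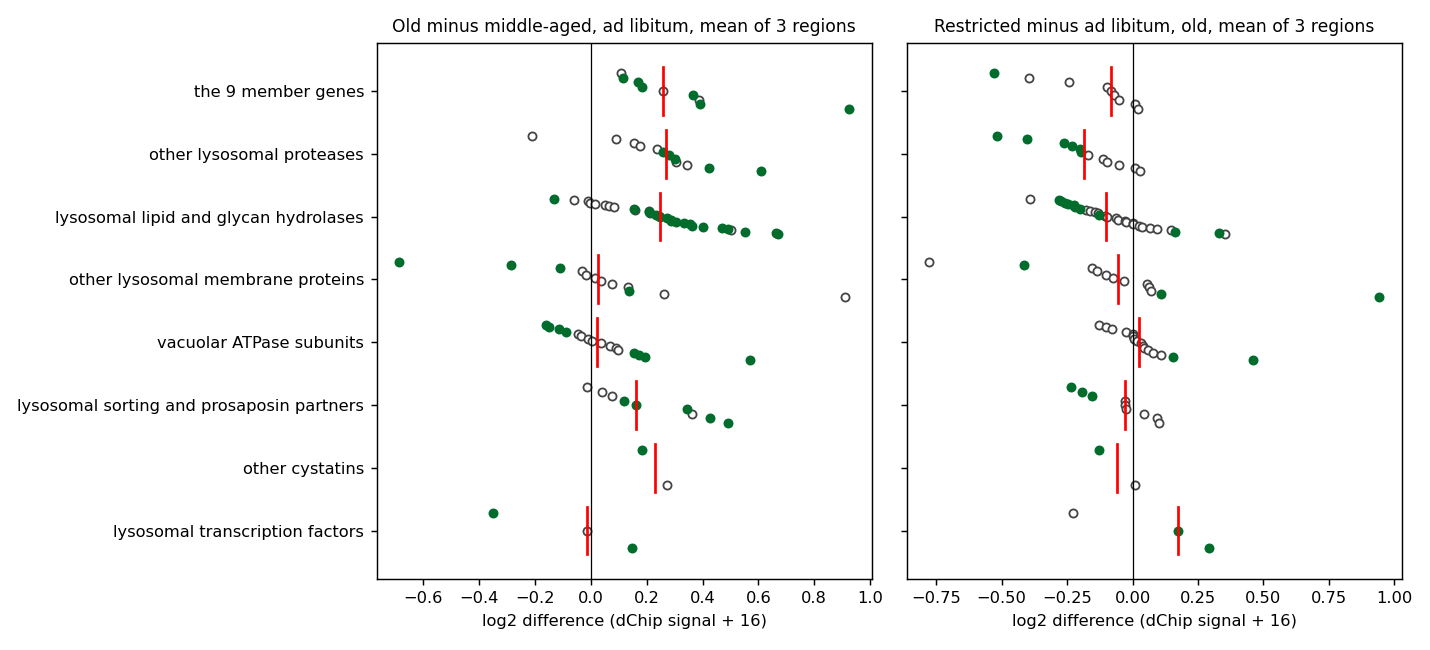
Differences of log2(dChip signal + 16) on the mean over regions for the genes of each lysosomal list, old minus middle-aged (left) and restricted minus ad libitum (right). Each point is 1 gene, filled where it passed, and the red line is the list's median. With age the proteases and hydrolases lie mostly above 0, at medians of 0.27 and 0.25, while the membrane proteins and pump subunits have medians of 0.03 and 0.02.

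The diet comparison asked how old restricted rats differed from old ad libitum ones. Within regions 0 of the 9 genes passed in CA1, CA3 or the dentate gyrus, where 0.0215%, 8.38% and 31.7% of all probe sets did (19.4% lower in the dentate gyrus). On the mean over regions Ctsz alone was lower, beside 32% of all probe sets (20.1% lower). Diet and poly-A set cannot be told apart on that mean, as all restricted dentate gyrus arrays are in the lowest set. In the table of all arrays Ctsz and Lamp2 were lower in the dentate gyrus and Ctsz and Ctsb on the mean, where 20.7% and 25.6% of probe sets passed. The share of higher calls was 38.97% in the dentate gyrus and 37.1% on the mean in the dChip table, and 55.9% and 54.8% in the table of all arrays. At an unadjusted p under 0.05 limma counted 2 members in CA1 (Ctsz and Ctsh), 1 in CA3 (Ctsz) and 2 in the dentate gyrus (Ctsz and Lamp2). Of the 18625 probe sets tested, 4475, 4838 and 8275 were under it in these regions. The 9 genes had a median difference of -0.14 in CA1, -0.03 in CA3 and -0.04 in the dentate gyrus, against -0.04 for all genes in each.

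Ctsz had CA1 signals of 1133 to 3224 (median 1340) in the 6 ad libitum rats and 862.1 to 1289 (median 1051) in the 6 restricted ones. In CA3 they were 922.2 to 2572 against 913.0 to 1203, and in the dentate gyrus 883.6 to 2329.7 against 552.5 to 1032. The groups overlapped in each region, the restricted rats toward the low end. Averaged over regions on the log2 scale and turned back to signals, the ad libitum rats had 2683, 1124 and 1136 (good performers) and 1187, 1339.8 and 1233 (poor performers). The restricted rats had 1030.2, 986.7 and 859.7 (good) and 776.1, 1083 and 980.4 (poor), all below the lowest ad libitum rat.

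The Ctsz differences were -0.54 ± 0.22 in CA1 (adjusted p = 0.172), -0.44 ± 0.20 in CA3 (0.187), -0.62 ± 0.23 in the dentate gyrus (0.057) and -0.53 ± 0.19 on the mean (0.0478). The call on the mean was lost without any 1 of 10 of the 12 rats, with adjusted p of up to 0.103. It was kept without ad libitum good performer 1, when the difference was -0.34 (0.014), and without good performer 2. In the table of all arrays the differences were -0.78 in CA1, -0.63 in CA3, -0.91 ± 0.24 in the dentate gyrus (adjusted p = 0.0168) and -0.78 ± 0.20 on the mean (0.0135). Among CA1 arrays of the middle poly-A set, 3 restricted good performers against 6 ad libitum rats, the difference was -0.61 (0.290).

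Lamp2 in the dentate gyrus was 3942 to 6234 (median 4891) in the ad libitum rats and 3520.0 to 4547 (median 4123) in the restricted ones. The difference was -0.28 ± 0.12 (adjusted p = 0.0838), and 0.0332 without ad libitum poor performer 2. By the table of all arrays the groups did not overlap, at 1292 to 1927 against 927.8 to 1250.2, and the difference was -0.50 ± 0.11 (adjusted p = 0.00821). In CA1 and CA3 the Lamp2 difference in the dChip table was -0.01 ± 0.070 and -0.01 ± 0.075. Diet and poly-A set cannot be told apart in the dentate gyrus.

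Ctsd and Psap, which passed for age in all 3 regions of the dChip table, did not pass with diet in any. The Ctsd age calls were the less firm, as given above. In CA1 Ctsd was 3006 to 4762 (median 3723) in the ad libitum rats and 1908 to 3885 (median 3041) in the restricted ones, a difference of -0.33 ± 0.16 (adjusted p = 0.224). The lowest value was that of the outlying array, poor performer 3, and without it the difference was -0.21 (0.309). Its dentate gyrus signal was 3313 to 4416 against 3396 to 4399.7, a difference of 0.14 ± 0.087. Psap differed by -0.14 ± 0.11 in CA1, 0.09 ± 0.094 in CA3 and 0.08 ± 0.041 in the dentate gyrus. Without the outlying arrays Psap differed by -0.045 in CA1 (adjusted p = 0.734) and 0.17 in CA3 (0.0579), and Ctsd in CA3 by 0.19 (0.0773), against 0.05 with all arrays. On the mean Psap differed by 0.01 ± 0.061, with a 95% interval of -0.13 to 0.14.

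Ctsh, Ctsc and Ctsb had negative differences that did not pass in the dChip table. Ctsh differed by -0.32 ± 0.14 in CA1 (adjusted p = 0.186) and Ctsc by -0.57 ± 0.29 in the dentate gyrus (0.150), where ad libitum good performer 1 had 940.4 and the other ad libitum rats 216.2 to 295.2. Without that rat these were -0.19 (0.231) and -0.27 (0.0713). Ctsb differed by -0.17 ± 0.053 on the mean in the table of all arrays, which passed (0.0334), and by -0.07 ± 0.043 in the dChip table (0.223). Cst3 differed by -0.08 ± 0.037 on the mean (0.100), and the ranges overlapped in each region. Averaged over regions they did not, at 9980.5 to 11214 in the restricted rats and 11357 to 12075 in the ad libitum ones, while in the table of all arrays they did (3249 to 5382 and 3825 to 4335). Lamp1 differed by 0.02 ± 0.033.

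**Figure D4:**
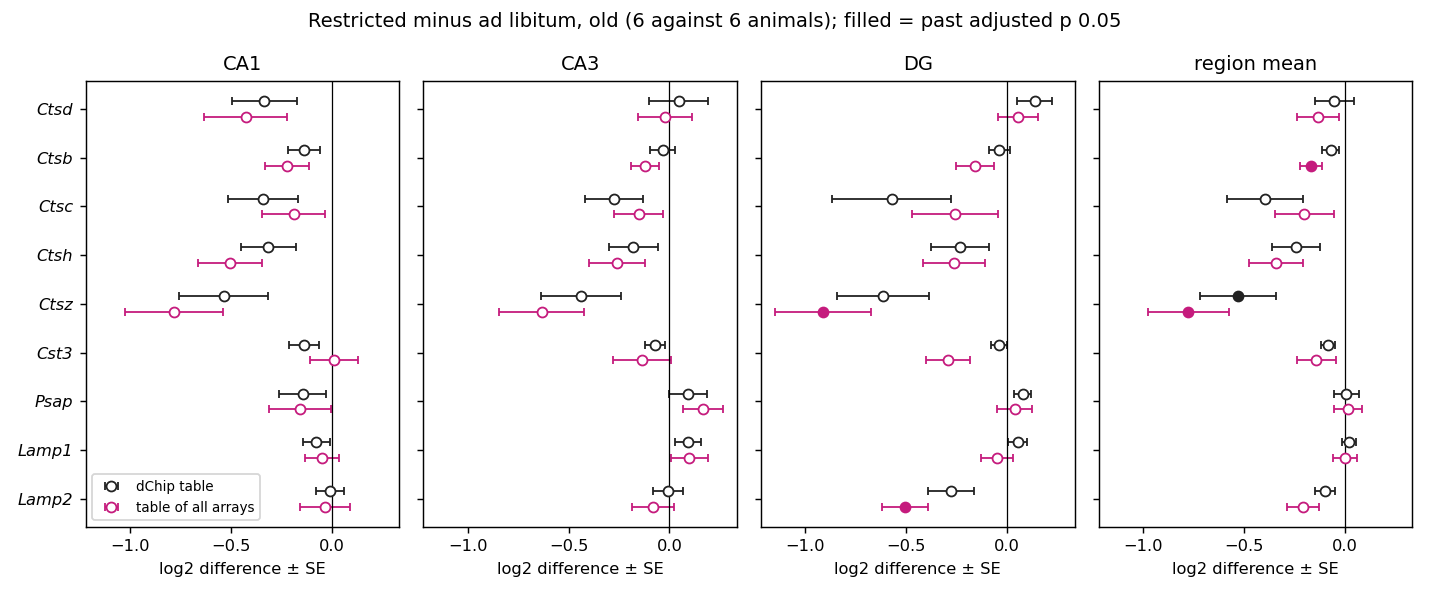
Restricted minus ad libitum difference of log2(signal + 16) in the old rats for each of the 9 genes, by region and on the mean over regions, with bars of 1 standard error. The 2 colours are the dChip diet table and the table of all arrays, and filled points passed at an adjusted p under 0.05. Ctsz lies to the left of 0 in each region and passed on the mean, at -0.53 in the dChip table and -0.78 in the table of all arrays.

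Diet by region was tested too, and 0 of 9 genes passed in any pair of regions, where 1.04%, 0% and 0% of probe sets did. Of the 18625 probe sets tested, 3781, 3656 and 1211 had an unadjusted p under 0.05. Among the 9 genes 2, 2 and 0 did. They were Ctsd and Psap in CA3 minus CA1, at 0.38 ± 0.12 (adjusted p = 0.103) and 0.24 ± 0.091 (0.175), and Ctsd and Lamp2 in dentate gyrus minus CA1, at 0.47 ± 0.20 (0.222) and -0.27 ± 0.12 (0.249). Of the 9565 genes tested 0.0105% were lower with restriction in CA1, 5.15% in CA3, 18.0% in the dentate gyrus and 20.4% on the mean. The microglia markers moved with diet as well: 0 of 10 passed in CA1, 2 were lower in CA3, 5 in the dentate gyrus and 7 on the mean, and 0 were higher. Their summed CA1 signal was 9150.4 to 18044 in the ad libitum rats and 6674 to 9953 in the restricted ones. All 5 MHC class II genes were lower on the mean. Of 11 astrocyte markers 1 was lower on the mean. Their part in the Ctsz difference was not tested.

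Of 9565 genes tested 20.4% fell and 11.7% rose with restriction on the mean over regions. Among the other lysosomal genes 6 of 12 proteases fell on that mean and 0 rose, with a median of -0.18. Ctse fell by 0.52, Ctsf by 0.26, Cpq by 0.23 and Ctsl (cathepsin L) by 0.20 on the log2 scale. Of 30 hydrolases 8 fell and 2 rose. Ppt1 (palmitoyl-protein thioesterase 1) fell by 0.22, Arsb by 0.27 and Lyz2 (lysozyme) by 0.26, while Ppt2 rose by 0.33. Of 9 sorting genes 3 fell, M6pr (the cation-dependent mannose 6-phosphate receptor), Gnptab and Gnptg, by 0.19, 0.24 and 0.16. Of 3 transcription factors 2 rose, Tfeb by 0.29 and Tfe3 by 0.17. Of 12 membrane proteins 2 rose, Cln3 by 0.94 (0.24 in the table of all arrays, adjusted p = 0.0712) and Mcoln1 (a calcium channel) by 0.11, and Scarb2 (also known as LIMP-2) fell by 0.41. Of 16 pump subunits 2 rose, Atp6v0a1 by 0.46 and Atp6v0b by 0.15, and of 2 cystatins Cstb fell by 0.13. In CA1 0 genes of these lists passed, and in the dentate gyrus, where 18.0% of genes fell, 4 of 12 proteases did.

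Old restricted rats were also set against middle-aged ad libitum rats in the table of all arrays, the only one that holds both. These groups differ in age, diet and poly-A set at once, which cannot be told apart. The middle-aged rats enter this comparison and the age comparison alike, so the values stand side by side and are not independent. Psap was higher in restricted rats in each region, at 808.8 to 1793 (median 1451) in CA1 against the 3 middle-aged values near 645.6 given above. It was 1285 to 1979 (median 1627) in CA3 and 1287 to 1771 (median 1578) in the dentate gyrus. The differences were 1.05 ± 0.20 in CA1 (adjusted p = 0.0165), 1.12 ± 0.13 in CA3 (0.000764) and 1.13 ± 0.095 in the dentate gyrus (1.53e-05). Members past the threshold numbered 1 in CA1, 2 in CA3, 4 in the dentate gyrus and 2 on the mean, where 4.04%, 8.99%, 29.9% and 29.2% of all probe sets passed. The CA1 call for Psap was lost without any 1 middle-aged rat (adjusted p 0.0593, 0.0883 and 0.0900).

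On the mean over regions Ctsz of the restricted rats lay between the other classes. Averaged over regions in the table of all arrays it was 63.2, 65.8 and 55.4 in the middle-aged rats. It was 88.1, 77.6 and 74.6 in the restricted good performers and 70.9, 94.2 and 100.4 in the restricted poor performers. The old ad libitum rats had 355.8, 118.7, 125.1, 125.0, 137.1 and 146.7. The 3 classes did not overlap. The restricted rats were above the middle-aged ones by 0.37 ± 0.099 on the mean (adjusted p = 0.0175), a call lost without middle-aged replicate 3 (0.0876). In CA3 they were above by 0.52 ± 0.11 (0.0161), lost without middle-aged replicate 1 or 3 (0.0835 and 0.0897). In CA1 and the dentate gyrus limma's test did not pass (adjusted p = 0.228 and 0.334).

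**Figure D5:**
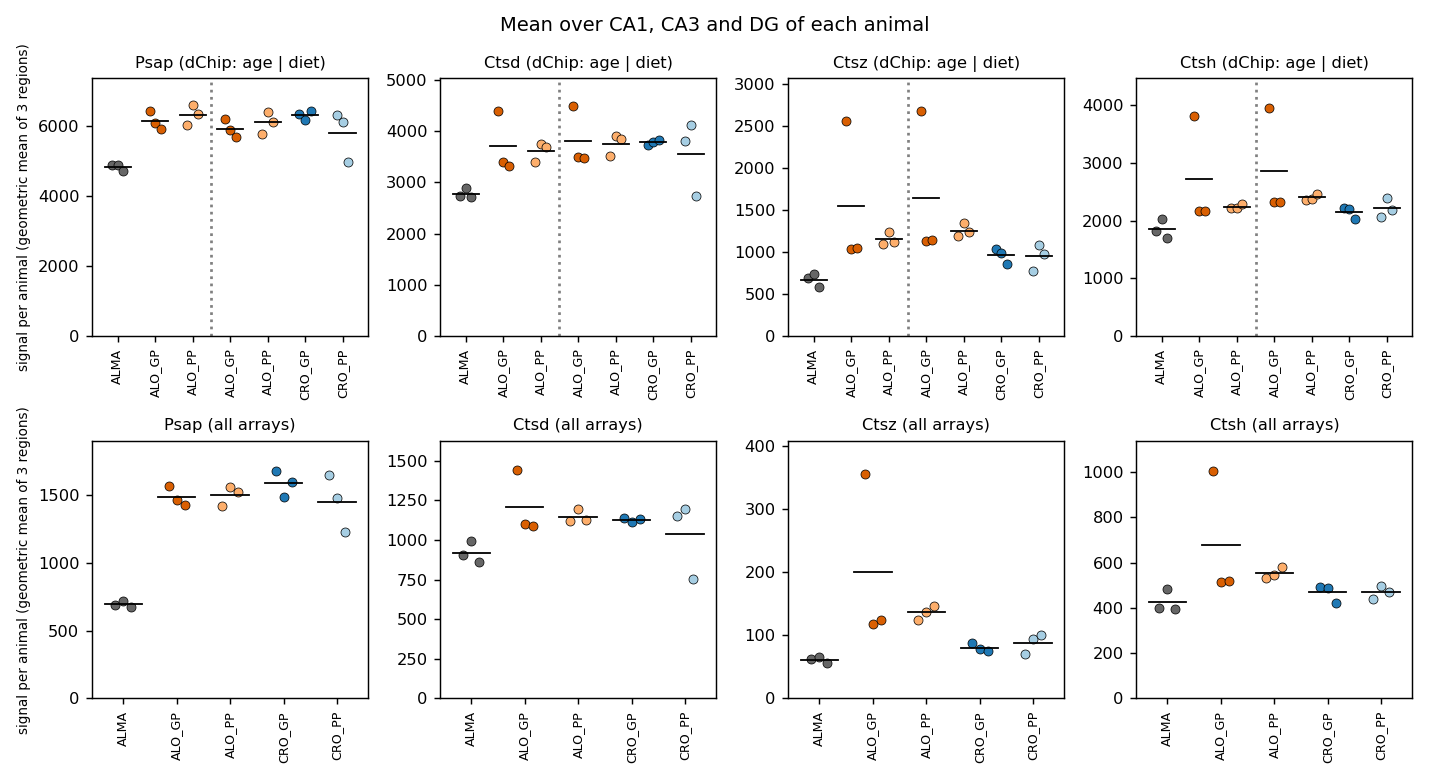
Signals of Psap, Ctsd, Ctsz and Ctsh in each rat, as the geometric mean of its 3 regions, on linear axes from 0. The upper row shows the dChip age and diet tables, parted by a dotted line, and the lower row the table of all arrays, with bars for class means. Psap of all old rats in the lower row, 1226 to 1678, lies above the middle-aged ones, at 679.0 to 722.2, and Ctsz of the restricted rats lies between the middle-aged and the old ad libitum rats.

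In the dentate gyrus Ctsd was higher in restricted than in middle-aged rats, at 1016 to 1349.7 (median 1159.7) against 803.0, 919.6 and 770.9. The difference was 0.48 ± 0.097 (adjusted p = 0.00398). In CA3 it was 0.24 ± 0.18 (0.462), and 0.37 without the outlying array, poor performer 4 (0.0113). On the mean it was 0.22 ± 0.13 (0.235), and 0.32 without that rat (0.00173). Lamp2 and Cst3 were lower in the dentate gyrus of restricted rats, by -0.36 ± 0.11 (adjusted p = 0.0245) and -0.29 ± 0.097 (0.0421). Lamp2 was 927.8 to 1250.2 against 1317, 1611 and 1331, with no overlap, and its call was lost without middle-aged replicate 2 (0.118). The Cst3 call was lost without any 1 of 8 of the 9 rats, all but restricted poor performer 3 (adjusted p up to 0.134), and its direction turned to 0.10 ± 0.063 after quantile normalization.

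Between poor and good performers, with diet in the model and 6 rats a class, 0 of the 9 genes passed in CA1, CA3, the dentate gyrus or on the mean. Of all probe sets 0%, 0%, 0% and 0.0215% passed by limma's adjusted p. At an unadjusted p under 0.05 the count of members was 0 as well, beside 3032, 720, 2028 and 3285 of the 18625 probe sets tested. The difference of Ctsc in the dentate gyrus, poor minus good, was -0.36 ± 0.29 with a 95% interval of -0.99 to 0.27, and -0.059 without ad libitum good performer 1, the rat with 940.4. For Psap on the mean the interval was -0.18 to 0.09 and for Ctsd -0.28 to 0.15.

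The regions were compared within the 9 ad libitum animals of the age table, with the animal as a block. Ctsd was lower in the dentate gyrus than in CA3 by 0.16 ± 0.061 on the log2 scale (difference -0.16, adjusted p = 0.0455), where 36% of all probe sets passed and 16% were lower. It was the 1 call of this family. The call was lost in 7 of 9 fits that leave out a rat, all but those without old good performer 1 or poor performer 1, with adjusted p up to 0.130. In the 12 old rats of the diet table the same difference was -0.04 ± 0.097 (0.773). In CA3 minus CA1 and dentate gyrus minus CA1 0 of 9 passed, beside 22.3% and 16.5% of all probe sets. By limma's unadjusted p under 0.05 there were 0 of 9 as well, beside 6681 and 5311 of the 18625 probe sets tested. The 12 old rats gave lower Ctsz and Lamp2 in the dentate gyrus than in CA1, by -0.30 ± 0.094 (0.0188) and -0.27 ± 0.07 (0.00573), beside 29.5% of all probe sets (14.8% lower). These rats include the restricted ones, whose dentate gyrus arrays are all in the lowest poly-A set, while 3 of their CA1 arrays are in the middle set. Region is thus partly mixed with poly-A set and diet in these 2 calls, which the 9 ad libitum animals did not give. For Psap the 95% interval of the dentate gyrus minus CA1 was -0.07 to 0.11.

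How far the members moved together was described over the 15 class-by-region means of the table of all arrays. These points share animals across regions and the poly-A sets, so the correlations are descriptions. The members fell into no single pattern, as Pearson's r ranged from -0.384 (Cst3 with Ctsd) to 0.911 (Ctsh with Ctsz). Ctsb, Ctsh and Ctsz were alike, at 0.823 to 0.911 for their pairs. Cst3 and Lamp2 were alike at 0.732, and Psap was most like Ctsd, at 0.646. Of 9543 genes those most like Ctsz were Fcgr2b (an Fc receptor of myeloid cells, 0.963), Tmem176a (0.962) and LOC498279 (0.961). Those most like Ctsh were Tmem176a (0.952), C1qb (a complement subunit made by microglia, 0.939) and Tmem176b (0.932).

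Psap was most like Ddit4 (a stress-induced inhibitor of mTORC1, 0.988), Ogfr (0.973) and Pygb (brain glycogen phosphorylase, 0.973). Ctsd was most like Rnh1 (0.940), Tecr (0.935) and Drg2 (0.930). Cst3 was most like Sptan1 (0.955), Fth1 (ferritin heavy chain, 0.953) and Mbp (myelin basic protein, 0.949), and Lamp2 was most like Pkp4 (0.942), Nek7 (0.939) and Bcas1 (0.938). Ctsb was most like Nr2c2ap (0.944), Atp6v1f (0.924) and Cope (0.924). Ctsc was most like Tpm4 (0.898), Trim5 (0.890) and Ifi44l (0.881), and Lamp1 was most like Rhou (0.840), Rffl (0.803) and Cdc42ep1 (0.800).

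The authors' deposited table of their own age comparison listed Psap in each region, at signed folds of 1.36 in CA1, 1.23 in CA3 and 1.28 in the dentate gyrus. Over all regions the authors' deposited table listed 5 members, Ctsz at 1.92, Ctsd at 1.31, Psap at 1.29, Cst3 at 1.13 and Ctsb at 1.08, among 4849 probe sets. The authors' deposited table for diet listed Ctsz over all regions at -1.47 and 0 members in CA1, CA3 or the dentate gyrus, among 350, 1596 and 2406 probe sets. The highest unadjusted p in any of these lists was 0.0009999, another rule than the adjusted p used here.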

How the data were processed

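The members and the gene lists were chosen with earlier results of these data known. RNA of each region and rat was measured on an Affymetrix rat array, and per the file headers the authors deposited dChip model-based signal values for the 27 ad libitum and the 36 old arrays in separate tables. A second deposited signal per probe set covers all 45 arrays, and how it was made, like the dChip version and model, is not stated by the labels or headers. The authors' sample sheet describes normalisation within each region for age and jointly for diet, the reverse of how their tables are split. The authors' deposited lists give signed folds and unadjusted p-values of their own tests.

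Signals were tested as log2(signal + 16) with limma 3.58.1 in R 4.3.3, after leaving out probe sets whose mean signal was in the lowest 40% (18625 tested), with Benjamini-Hochberg adjustment over all of them. Age, diet and performance were tested per region and on each animal's mean over regions, their differences between regions within animals, and regions with the animal as a block. The fit was tested on simulated data. 18088 probe sets have 1 gene symbol, 986 have several gene IDs and 11968 have none, and symbols were updated through RefSeq gene tables. All 9 members are named in every comparison, and of each other list up to 4 genes of smallest p past the threshold, of which 2 hydrolases are not reported here. The 3 genes most like each member had the highest Pearson's r of log2(signal + 16).

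Array medians were 151.2 to 175.5 in the age table, 153.1 to 187.7 in the diet table and 29.6 to 45.5 in the table of all arrays, with 58.9% to 67.4% of probe sets called present. The number of arrays limits the precision. Replicate numbers in the titles do not mark shared animals across classes: residuals of same-numbered arrays correlated at -0.0171 on average (84 pairs, -0.567 to 0.414) and those of other pairs at 0.0098. 1 middle-aged CA3 array repeats an animal code and was placed by its title number, and 1 restricted dentate gyrus array is a good performer by title and a poor one by description, and was kept as good. Alternatives were a pseudocount of 1, no filter, quantile normalization, the replicate block, the table of all arrays, the per-region dChip tables, performance in the model, subsets of arrays and leaving out each rat. Coordinates are those of RefSeq on GRCr8.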

Additional observations from a re-analysis of the deposited data

Results flagged for a closer look

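In groups of 6 old arrays of 1 diet and region, 13 of 54 gene-by-group sets held an array standing apart from the rest by Dixon's test, where chance gives about 1 in 20. The sets share arrays, and 7 of the 13 come from the 2 arrays of 1 restricted poor performer that the authors' sample sheet marks as outliers.

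On its CA1 array (replicate 3) Cst3 had a signal of 8635 against 10713 to 11276 on the other 5, Ctsb 6304 against 7809 to 8158, and Psap 3880 against 5588 to 6504. On its CA3 array (replicate 4) Cst3 had 10111 against 10944 to 11021, Ctsb 6849 against 8011 to 8478, Ctsd 2450.3 against 4193 to 4712, and Psap 4687 against 6036 to 6955. All 7 values were the lowest of their group.

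Another 5 come from the ad libitum good performer 1. Ctsc was 423.2 against 241.8 to 269.1 in CA3 and 940.4 against 216.2 to 295.2 in the dentate gyrus. In CA1 Ctsh was 4256 against 2285 to 2802, and Ctsz 3224 against 1133 to 1606. Its Cst3 in the dentate gyrus was the lowest, at 10893 against 11566 to 11983. This rat also had the highest summed microglia and MHC class II signals of the old ad libitum rats in each region, and the part of those cells in its values was not tested. The last is Lamp2 in CA3 of restricted good performer 2, at 5385 against 4683 to 4921.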

How the results depend on the processing

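Each count below is the number of the 9 genes past the threshold, and the cause of a change was not tested. Without the filter the age count fell from 3 to 1 in CA3 and from 2 to 1 in the dentate gyrus, the diet count on the mean from 1 to 0, and that of the dentate gyrus minus CA3 from 1 to 0. Quantile normalization gave 1 for age in the dentate gyrus, 0 for diet on the mean, and 2 and 1, from 4 and 2, for restricted against middle-aged rats in the dentate gyrus and on the mean. Without the filter, and after quantile normalization, age calls were also lost for Ctsd in CA1 and for Lamp1 and Lamp2 on the mean. Quantile normalization lost that of Ctsd in CA3 too. The Cst3 call of restricted against middle-aged rats in the dentate gyrus was lost without the filter and with a pseudocount of 1. The table of all arrays gave 3, 2 and 1 for age in CA1, CA3 and the dentate gyrus, and 4 on the mean. For diet it gave 2 in the dentate gyrus and 2 on the mean. With the replicate block by title number, which does not pair animals, the age count in CA3 was 1 and the diet count on the mean 0, where Ctsz had an adjusted p of 0.0635. With that block Lamp1 also lost its age call on the mean, and Ctsd passed in CA3 of restricted against middle-aged rats. Without the animal as a replicate block the dentate gyrus minus CA3 gave 0, and in the 12 old animals 0, against 2 for the dentate gyrus minus CA1. Leaving out 1 rat gave 1 to 5 in CA1 (4 with all rats), 0 to 3 in CA3, 1 to 3 in the dentate gyrus and 3 to 6 on the mean for age. For diet it gave 0 in CA1 and CA3 and 0 to 1 in the dentate gyrus and on the mean. It gave 0 to 1 for the dentate gyrus minus CA1 and 0 to 2 for the dentate gyrus minus CA3. For restricted against middle-aged rats it gave 0 to 1 in CA1, 1 to 3 in CA3, 2 to 4 in the dentate gyrus and 1 to 4 on the mean. Of values past the threshold in either fit 2 turned sign, Cst3 with age in CA3 in the table of all arrays (-0.048) and Cst3 of restricted against middle-aged rats in the dentate gyrus after quantile normalization (0.10). Of 3519 single-gene values under alternatives, 3166 kept direction and side of the threshold, 102 lost the threshold and 22 gained it, and 227 that passed in neither fit had the opposite sign.

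Counts over all probe sets moved too. For age in CA1 5169 passed, 3371 in the table of all arrays and as few as 3429 without middle-aged replicate 3. For age in CA3 3734 passed, and 2332 without that rat. For age in the dentate gyrus 1919 passed, 1243 in the table of all arrays and 700 without middle-aged replicate 1. For diet in CA1 4 passed, 494 with performance in the model and 258 without the outlying array. In CA3 1561 passed, 852 without the filter and 4856 without the outlying array. In the dentate gyrus 5907 passed, and 3858 in the table of all arrays. For restricted against middle-aged rats 753 passed in CA1, with a range of 120 to 1909 without 1 rat, and 1675 in CA3, with a range of 605 to 4119. With the replicate block these were 421 and 3026. The share of higher calls moved by over 10 points under other scalings. For age it was 75.8% in CA3, 58.7% after quantile normalization and 65.7% in the table of all arrays, and 79.6% and 63.4% in the dentate gyrus before and after quantile normalization. For diet in CA3 it was 35.04%, 51.4% and 59.3%. For restricted against middle-aged rats on the mean it was 60.3%, and 47.9% after quantile normalization.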
